A study of Mus musculus with 12 samples.

Results

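The interferon regulatory factors (IRFs) are transcription factors that share a DNA-binding domain and act in interferon responses and in the development of blood cells. The 7 genes Irf1, Irf2, Irf3, Irf4, Irf5, Irf7 and Irf8 were taken by gene symbol from the deposited tables of both cell lines, 7 of 46517 genes. The symbols use no measured value, but earlier results of these data were known when they were chosen. RNA was sequenced from cultured B16F10 cells, a mouse melanoma line, and 4T1 cells, a mouse mammary carcinoma line. The 4 groups were control B16F10, B16F10 with decitabine at 0.1 µM for 48 h, control 4T1 and 4T1 with decitabine at 1 µM for 48 h, with 3 libraries each and 12 in all. Decitabine is a cytidine analogue that is built into DNA and traps DNA methyltransferases. The labels do not describe what the control wells received. The dose differed with the line, so line and dose cannot be told apart in any comparison of the responses. Each line is a single line grown in 1 medium, and dead cells had been removed with beads, so the values describe cells that lived through the treatment. Separate cultures are not stated for the replicates, so the spread behind each p-value may be technical.

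As background, Irf3 protein is present in most cells in a resting form and is activated by the kinases Tbk1 and Ikke after viral nucleic acid is sensed, when it enters the nucleus and switches on Ifnb1. Secreted interferon then acts through a complex of STAT proteins and Irf9 to induce many genes, among them Irf7, which amplifies the response. Irf1 is induced by interferon gamma and activates antigen presentation genes, and Irf2 binds the same sites and mostly represses. Irf5 drives inflammatory cytokine genes downstream of Toll-like receptors. Irf4 and Irf8 are known from lymphoid and myeloid cells, where they bind DNA with partners such as PU.1, and Irf4 is also known from melanocytes, where it acts with Mitf on pigment genes.

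The libraries held 48197936 to 76042600 estimated counts and had between 17336 and 23880 genes above 0. Levels are given as CPM, counts scaled by library size and TMM factors over the 12 libraries, and a group mean is given with its SD over 3 libraries. A count of 3 over the 3 libraries of a group corresponds to 0.017 to 0.0189 CPM, the limit that a count of 0 allows, for counting error only. Dnmt1, the methyltransferase that decitabine traps, averaged 286 CPM in control and 181 CPM in treated B16F10, and 423 and 335 CPM in 4T1. Summed melanocyte markers lay between 9890 and 12700 CPM in B16F10 and at 11.3 CPM or less in 4T1, and summed epithelial and mammary markers lay between 3320 and 4170 CPM in 4T1 and at 10.6 CPM or less in B16F10, each as the line's label says. Changes below are log2 fold changes from the fit of the line's own 6 libraries with standard errors (SE), and a gene was called where edgeR's p-value, adjusted over all genes tested in that fit, was under 0.05.

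The promoters of the 4 members that passed the test in 4T1 are shown first, since decitabine acts on DNA methylation and CpG number sets how much of it a promoter can carry. Each is the RefSeq window (GRCm38.p6) from 250 bases before to 50 bases after the annotated start, 5′ to 3′ along the gene, with matches to 3 motifs in capitals. The motifs were the ISRE core bound by IRFs (GAAANNGAAA), the GAS site bound by STAT proteins (TTCNNNGAA) and the NF-kB consensus, each read on both strands. No methylation measurement was analysed here.
Irf1, chr11:53769764-53770063, forward strand: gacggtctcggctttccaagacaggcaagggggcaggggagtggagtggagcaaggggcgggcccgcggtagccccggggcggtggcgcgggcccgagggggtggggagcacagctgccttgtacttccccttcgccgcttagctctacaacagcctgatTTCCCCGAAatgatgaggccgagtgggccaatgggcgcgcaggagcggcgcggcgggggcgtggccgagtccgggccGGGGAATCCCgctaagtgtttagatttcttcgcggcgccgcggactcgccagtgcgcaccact
Irf5, chr6:29526375-29526674, forward strand: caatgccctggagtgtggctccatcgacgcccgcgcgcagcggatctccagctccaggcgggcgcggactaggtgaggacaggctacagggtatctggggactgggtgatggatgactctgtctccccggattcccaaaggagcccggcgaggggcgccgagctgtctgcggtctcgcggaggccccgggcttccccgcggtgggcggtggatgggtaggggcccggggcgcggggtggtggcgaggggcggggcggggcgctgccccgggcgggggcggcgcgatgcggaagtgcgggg
Irf7, chr7:141266375-141266674, reverse strand: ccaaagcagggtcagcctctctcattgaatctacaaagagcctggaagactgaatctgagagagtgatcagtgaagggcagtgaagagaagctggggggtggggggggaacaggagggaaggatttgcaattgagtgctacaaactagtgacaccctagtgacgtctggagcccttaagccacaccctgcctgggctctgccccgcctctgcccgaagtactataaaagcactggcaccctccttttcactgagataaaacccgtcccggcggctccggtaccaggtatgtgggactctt
Irf8, chr8:120736108-120736407, forward strand: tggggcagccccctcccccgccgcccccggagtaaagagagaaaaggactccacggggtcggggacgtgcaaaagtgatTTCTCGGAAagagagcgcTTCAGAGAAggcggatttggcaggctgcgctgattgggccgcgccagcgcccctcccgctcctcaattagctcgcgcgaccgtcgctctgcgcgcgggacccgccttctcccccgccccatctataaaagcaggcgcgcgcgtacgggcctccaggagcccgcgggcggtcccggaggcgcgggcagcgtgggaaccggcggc

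These windows differed in base composition. Irf1 held 32 CpGs, Irf5 35 and Irf8 38, against a median of 7 over 32851 RefSeq windows of the same length, and Irf7 held 7. The other members lay between, with 19 CpGs in the Irf2 window, 18 in Irf3 and 11 in Irf4. The Irf1 window had a GAS match at bases -90 to -82 from the start and an NF-kB match at -13 to -4, and the Irf8 window had GAS matches at -171 to -163 and -153 to -145. The Irf2 window, not printed, had the only ISRE core match among the members' windows (GAAAATGAAA at -241 to -232), beside a GAS match (TTCCGAGAA) and an NF-kB match (GGGGATTTCC). No motif was matched in the windows of Irf3, Irf4, Irf5 or Irf7. Only full matches to these patterns within the windows were sought, so variant or more distant sites would be missed. The ISRE core occurred in 3.44% of all windows, GAS in 8.3% and the NF-kB consensus in 8.46%. Irf1 and Irf8 each have another RefSeq start, with 43 and 8 CpGs and no match.

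The 7 genes formed a different mixture in each line. Levels of different genes were compared per length, as TPM, counts per kilobase of annotated exon scaled to the same total in every library. In control B16F10 the order of mean TPM was Irf3 (22.6), Irf1 (15.8), Irf2 (6.62), Irf4 (0.198), Irf7 (0.115), Irf5 (0.0349) and Irf8 (0), and the libraries of Irf7 and Irf5, and of Irf5 and Irf8, overlapped. In treated B16F10 it was Irf3 (20.5), Irf1 (19.6), Irf2 (7.4), Irf4 (0.709), Irf7 (0.703), Irf5 (0.121) and Irf8 (0.0072), with overlap between Irf3 and Irf1 and between Irf4 and Irf7. Irf3, Irf1 and Irf2 thus held nearly all of the summed TPM of the 7 genes in B16F10, with Irf3 at 49.8% ± 2.08 of the sum in the controls and 41.8% ± 2.12 in the treated libraries (SD, n = 3 each).

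In control 4T1 the order of mean TPM was Irf1 (47.5), Irf3 (22.0), Irf2 (13.6), Irf8 (5.35), Irf5 (3.22), Irf7 (1.11) and Irf4 (0.00781), and no neighbours overlapped. In treated 4T1 it was Irf1 (58.7), Irf7 (42.1), Irf3 (18.3), Irf5 (11.4), Irf2 (11.4), Irf8 (2.45) and Irf4 (0.0191), and the libraries overlapped only between Irf5 and Irf2. Irf7 moved from the second lowest place to the second highest, from 1.19% to 29.2% of the summed TPM. With the longest transcript as length, Irf2 (17.5 TPM) stood above Irf5 (12.2 TPM) in treated 4T1, and the overlapping pairs changed places in treated B16F10. TPM is relative to a library's whole sum, and in 4T1 the Irf3 mean went from 22.0 to 18.3 TPM while its CPM mean went from 24.4 to 25.7. The summed TPM of the 7 genes averaged 45.4 and 49.1 in B16F10 and 92.9 and 144 in 4T1.

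**Figure D1:**
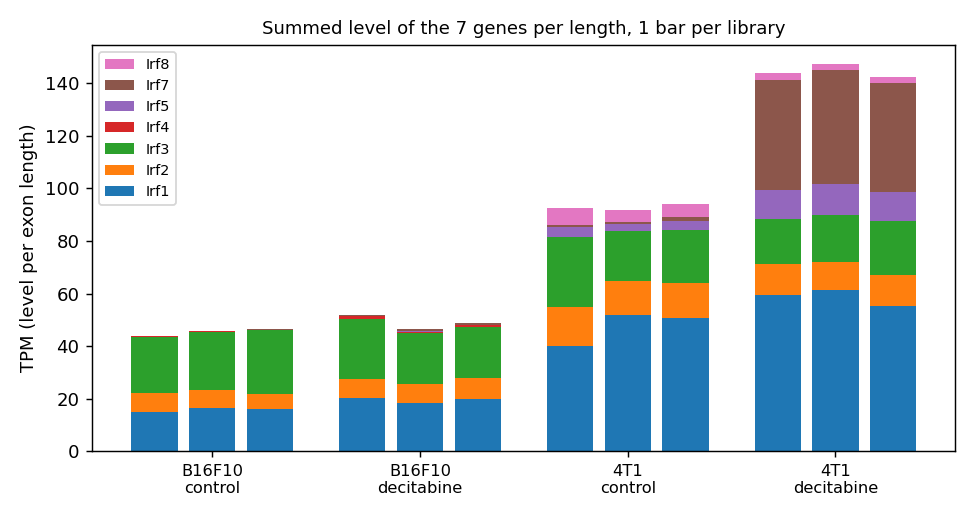
Stacked TPM (level per union exon length) of the 7 genes, 1 bar per library, with the 3 libraries of each group side by side. Irf3, Irf1 and Irf2 fill the B16F10 bars, Irf8 and Irf5 are visible in control 4T1, and Irf7 (mean 42.1 TPM) appears as a large segment in the treated 4T1 libraries.

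In B16F10, 4 of the 5 members that could be tested were higher with decitabine (Irf1, Irf2, Irf4, Irf7) and 0 were lower. Among all 14344 genes tested in B16F10, 41.2% were called, 21.4% higher and 19.8% lower. In 4T1, 3 of the 6 testable members rose (Irf1, Irf5, Irf7) and 1 fell (Irf8), where 75.3% of 15523 genes were called, 39.2% higher and 36.1% lower. The 4T1 count of 4 of 6 is thus close to the share of all genes. Irf5 and Irf8 in B16F10 and Irf4 in 4T1 had too few counts to enter the test. Irf7 entered the B16F10 test only through its treated libraries, which favours a call of higher. In 4T1 the split of all calls depended on the scaling. It was 52.1% higher with TMM and 34% with library size alone, which moved the median log2 fold change of all genes from 0.027 to -0.272.

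**Figure D2:**
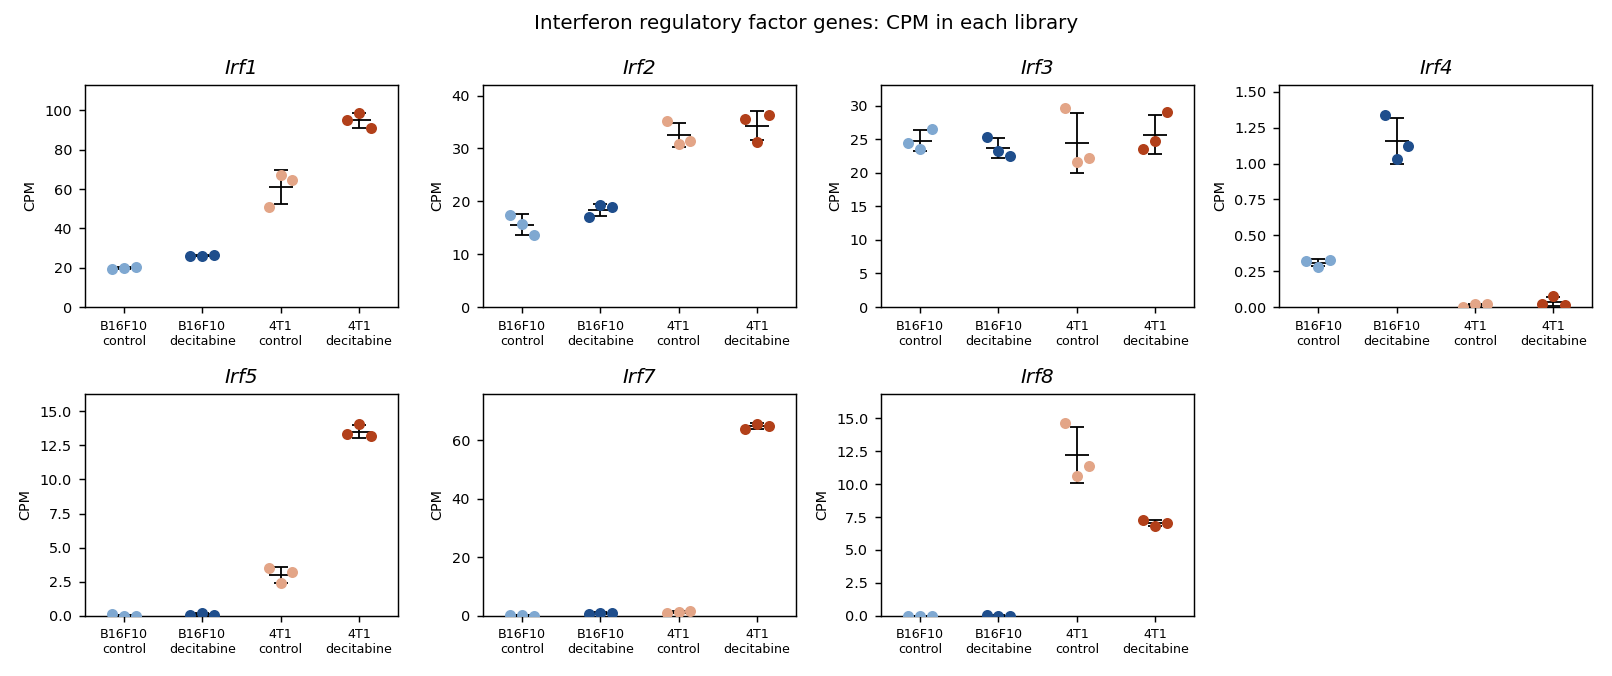
CPM of each of the 7 genes in each of the 12 libraries (points, replicates 1 to 3 from left to right), with the group mean (bar) and SD (whiskers, n = 3), on linear axes of different range. Irf7 lies at 1.68 CPM or less in every library outside treated 4T1, where it lies between 63.7 and 65.7 CPM.

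Irf1 (ENSMUSG00000018899, chr11:53770014-53778374 of mm10, forward strand), the activator of antigen presentation and growth-restraining genes, rose in both lines. In B16F10 its 3 control libraries had 19.5, 20.1 and 20.4 CPM and its 3 treated libraries 26.1, 25.9 and 26.7 CPM. Every treated library lay above every control, and the narrow groups did not approach each other. The log2 fold change was 0.40 (SE 0.0662, adjusted p = 9.26e-05). In 4T1 the controls had 51.1, 67.2 and 64.6 CPM and the treated libraries 95.3, 98.6 and 91.0 CPM. The groups again did not overlap, although the first control library stood apart below the other two. The log2 fold change was 0.69 (SE 0.0917, adjusted p = 0.000144), a 1.61-fold rise, and with library size alone it was 0.39.

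Irf2 (ENSMUSG00000031627, chr8:46739732-46847458, forward strand), the repressor that competes with Irf1 for its sites, had overlapping groups in both lines. In B16F10 it had 17.4, 15.8 and 13.6 CPM without and 17.1, 19.3 and 18.9 CPM with decitabine. The highest control library lay above the lowest treated one, so that the groups overlapped. The log2 fold change was 0.24 (SE 0.0947, adjusted p = 0.0476), and the call was lost with library size alone (adjusted p = 0.0696), with a replicate block (0.0637) and without any of 4 libraries, control replicate 2 or 3 or treated replicate 2 or 3 (0.0784 to 0.228). In 4T1 it had 35.2, 30.9 and 31.4 CPM without and 35.5, 31.2 and 36.3 CPM with the drug. These groups overlapped, and the log2 fold change, 0.13 (SE 0.0743, adjusted p = 0.136), was -0.17 with library size alone and passed the threshold with a filter at 1 CPM (adjusted p = 0.0411) and without control replicate 1 (0.0214) or treated replicate 2 (0.0419). The ratio of Irf1 to Irf2 TPM was 2.41 ± 0.359 and 2.66 ± 0.167 in control and treated B16F10, and 3.52 ± 0.719 and 5.18 ± 0.625 in 4T1 (SD, n = 3 each).

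Irf3 (ENSMUSG00000003184, chr7:44997648-45002848, forward strand), the resting factor that responds first to viral nucleic acid, had group means between 23.7 and 25.7 CPM. It had 24.4, 23.5 and 26.6 CPM in control and 25.3, 23.3 and 22.5 CPM in treated B16F10. In 4T1 the controls had 29.6, 21.6 and 22.2 CPM and the treated libraries 23.5, 24.7 and 29.0 CPM. The groups of each line overlapped, and the first 4T1 control was the highest of the 12 values. The log2 fold change was -0.06 in B16F10 (SE 0.0719, adjusted p = 0.534) and 0.13 in 4T1 (SE 0.136, adjusted p = 0.426). In 4T1 it was -0.17 with library size alone and 0.28 without control replicate 1, where it passed the threshold (adjusted p = 0.00731).

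Irf7 (ENSMUSG00000025498, chr7:141262706-141266481, reverse strand), the interferon-induced amplifier, had the largest log2 fold change of the tested members in each line. In control B16F10 it had 0.151, 0.169 and 0.0941 CPM, from 9, 9 and 6 counts, and with decitabine 0.588, 1.06 and 1.05 CPM, from 36, 62 and 57 counts. Each treated library was above each control, at a level below those of Irf1, Irf2 and Irf3. The control counts were under the filter's minimum count of 10, so Irf7 entered the B16F10 test through the treated group. The log2 fold change was 2.70 (SE 0.469, adjusted p = 0.000132), a 6.49-fold rise. In 4T1 the controls had 1.12, 1.25 and 1.68 CPM, from 57, 69 and 88 counts. The treated libraries had 63.7, 65.7 and 64.7 CPM, from 2634, 3548 and 4170 counts. The 3 treated values were nearly equal and far above the controls. The log2 fold change was 5.64 (SE 0.0994, adjusted p = 5.4e-12), a 49.7-fold rise that ranked 607 from the top of 15523 genes tested. Exons of Irf7 overlap those of Phrf1 on the opposite strand by 45 bases, and Phrf1 averaged 108 and 112 CPM in the same groups (adjusted p = 0.112). The ratio of Irf7 to Irf3 TPM went from 0.00514 to 0.035 in B16F10 and from 0.052 to 2.31 in 4T1, so that Irf7 passed the resting factor only in the treated 4T1 libraries.

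Irf5 (ENSMUSG00000029771, chr6:29526625-29541871, forward strand), the activator of inflammatory cytokine genes, rose in 4T1 and was near 0 in B16F10. The 4T1 controls had 3.49, 2.37 and 3.20 CPM and the treated libraries 13.3, 14.1 and 13.2 CPM. The groups were well apart, and the log2 fold change was 2.22 (SE 0.124, adjusted p = 5.17e-08), a 4.65-fold rise. In B16F10 the controls had 6, 0 and 0 counts and the treated libraries 4, 13 and 4, which was too few for the test across genes. The ratio of the summed counts, 21 against 6, was 3.55 after scaling, with an exact 95% interval for counting error of 1.39 to 10.8. All 6 control counts came from 1 library, without which the control group is at 0 and gives no ratio. Exons of Irf5 overlap those of Tnpo3, a nuclear import receptor gene on the opposite strand, by 411 bases, and no source used here says whether counting used the strand. Tnpo3 averaged 170 CPM in control and 136 CPM in treated 4T1 (adjusted p = 9.48e-05). In B16F10, where Irf5 had few counts, it averaged 217 and 197 CPM. The part of Tnpo3 reads in the Irf5 counts and ratios of either line was not tested. Smaller overlaps of this kind are 88 bases of Irf3 with Bcl2l12 and 135 bases of Irf1 with Gm17334.

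Irf4 (ENSMUSG00000021356, chr13:30749226-30766976, forward strand), the factor of lymphocytes and melanocytes, was measured in B16F10 and rose there. The controls had 0.318, 0.282 and 0.329 CPM, from 19, 15 and 21 counts, and the treated libraries 1.34, 1.03 and 1.12 CPM, from 82, 60 and 61 counts. Every treated library exceeded every control, and the log2 fold change was 1.90 (SE 0.352, adjusted p = 0.000248), a 3.74-fold rise. In 4T1 the controls held 0, 1 and 1 counts and the treated libraries 1, 4 and 1. The ratio of 6 to 2 counts was 2.98 with an interval of 0.533 to 30.2, so that no difference was detectable at this depth. Of the 11 melanocyte markers, 4 rose in B16F10 (Tyr, Slc45a2, Trpm1 and Oca2) and 4 fell (Tyrp1, Dct, Pmel and Sox10). Of all genes tested there, 21.4% rose and 19.8% fell. Mitf had 457 CPM in control and 416 CPM in treated B16F10 and was not called (adjusted p = 0.075). The summed level of the 11 markers, mostly Dct, Pmel and Tyrp1, lay between 12400 and 12700 CPM in the controls. In the treated libraries it lay between 9890 and 10100 CPM. The part of these markers in the Irf4 result was not tested.

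Irf8 (ENSMUSG00000041515, chr8:120736358-120756694, forward strand), the myeloid lineage factor, was the member that fell. The 4T1 controls had 14.6, 10.6 and 11.4 CPM, from 743, 585 and 598 counts. The treated libraries had 7.26, 6.80 and 7.08 CPM, from 300, 367 and 456 counts. The lowest control was above the highest treated library, and the log2 fold change was -0.74 (SE 0.119, adjusted p = 0.000206), a level 1.67-fold lower. In B16F10 it was at 0 in every control library and in 2 of the 3 treated ones, and the remaining library held 3 counts, so no fold is given. The ratio of Irf5 to Irf8 TPM in 4T1 went from 0.603 to 4.67, since these genes moved in opposite directions.

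**Figure D3:**
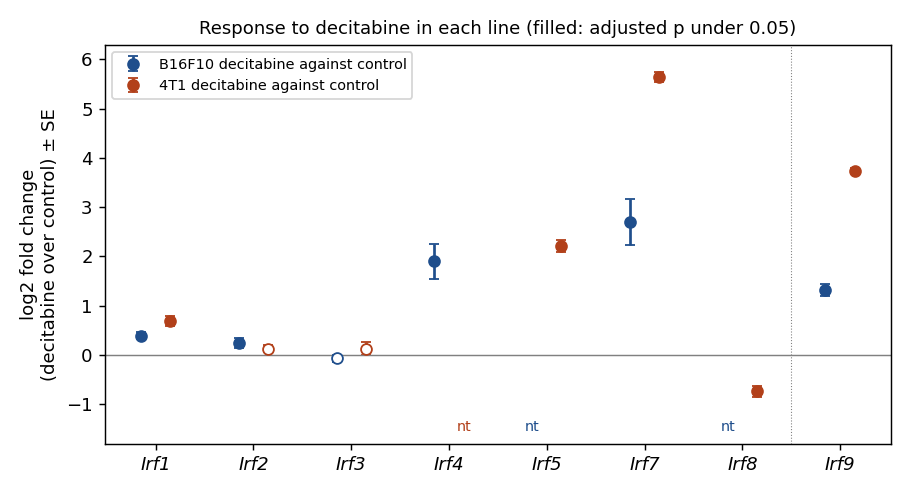
Log2 fold change with decitabine over control (points) with its standard error (whiskers) from edgeR in B16F10 (blue) and 4T1 (orange), filled where the adjusted p was under 0.05; "nt" marks a gene with too few counts to test. The dotted line separates the 7 genes from Irf9, and Irf7 in 4T1 (5.64) is the highest point.

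Between the control groups 6 of the 7 members differed, where 77.9% of 17127 genes were called in the fit of all 12 libraries. Irf1 was higher in 4T1 by 1.61 on the log2 scale (adjusted p = 1.65e-12), Irf2 by 1.06 (adjusted p = 3.45e-09) and Irf7 by 3.29 (adjusted p = 6.13e-09). Irf3 differed by -0.03 (adjusted p = 0.854), and its direction changed with the scaling. Irf5 had 477 counts in 4T1 against 6 in B16F10, a ratio of 88.3 (exact 95% interval 40.3 to 242). All 6 came from control replicate 1, and without it the fitted log2 difference went from 6.38 to 10.39 against a group at 0, which is no bound. Irf8 had 1926 counts in 4T1 against 0 in B16F10, and the exact 95% lower limit of the ratio was 580. Set against a floor of 3 counts over the B16F10 group, the ratio was 713. Irf4 alone was lower in 4T1, with 2 counts against 55, a ratio of 0.0404 (0.00477 to 0.153). Between the treated groups, where 83.7% of genes were called, the same 6 members were called and Irf7 was 72.3-fold higher in 4T1 (adjusted p = 5.48e-17).

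The difference between the responses was tested directly in the fit of all 12 libraries, where 49.8% of genes were called. Irf7 was the only 1 of the 7 members past the threshold, with a response larger in 4T1 by 2.89 on the log2 scale (SE 0.466, adjusted p = 5.59e-05). For Irf1 the difference was 0.25 (SE 0.11, adjusted p = 0.0716), and it passed with DESeq2 (adjusted p = 0.0312), with RLE size factors (0.0338), with a filter at 1 CPM (0.0228) and without 4T1 control replicate 2 (0.0227), but was 0.03 with library size alone (adjusted p = 0.896). For Irf2 it was -0.16 (adjusted p = 0.317), and -0.39 with library size alone (adjusted p = 0.0133). For Irf3 it was 0.14 (adjusted p = 0.485), and 0.30 without 4T1 control replicate 1 (adjusted p = 0.0401). The differences for Irf4, Irf5 and Irf8 rest on a line with almost no counts, with SEs of 1.7, 1.18 and 1.65, and are not read here.

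Irf9, the IRF that binds DNA in the complex formed after interferon receptor signalling, was given beside the 7 genes. It rose from 5.5 ± 0.891 to 13.7 ± 0.364 CPM in B16F10 (log2 fold change 1.32, SE 0.119, adjusted p = 5.38e-08). In 4T1 it rose from 6.08 ± 0.173 to 78.5 ± 0.581 CPM (3.74, SE 0.0519, adjusted p = 1.17e-12; SD, n = 3 each). The lines began at nearly the same Irf9 level and ended apart, and the difference of the responses was 2.37 (SE 0.121, adjusted p = 4.07e-11). Irf9 shares 123 exon bases with Rnf31 on the same strand, so reads there are uncertain.

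Upstream of the IRF proteins, the kinases and adaptors were mixed. In B16F10, of 17 tested genes of 18 listed, 4 rose and 1 fell, beside 21.4% and 19.8% of all genes, with a median log2 fold change of 0.08 where all genes had 0.003. Myd88, the adaptor of most Toll-like receptors, rose from 7.42 to 14.0 CPM (adjusted p = 7e-07). Tmem173, which encodes the DNA-sensing adaptor STING, rose from 36.3 to 50.2 CPM (adjusted p = 1.9e-05). Ticam1, the Toll-like receptor 3 adaptor, rose from 14.5 to 21.6 CPM (adjusted p = 3.52e-05). Traf6, a ubiquitin ligase of Toll-like receptor signalling, fell from 50.1 to 44.6 CPM (adjusted p = 0.0407), but no gene of the list fell with DESeq2, with RLE size factors, with a filter at 1 CPM or without any of 4 libraries, control replicates 2 and 3 and treated replicates 2 and 3. In 4T1, of 17 tested, 5 rose and 5 fell, beside 39.2% and 36.1% of all genes, with a median of -0.04 where all genes had 0.027. These shares and medians of all genes apply to each list that follows. The IkB kinase genes moved apart there, Chuk rising from 87.5 to 176 CPM (adjusted p = 4.73e-09) and Ikbkb falling from 70.5 to 49.5 CPM (adjusted p = 2.58e-06). Traf3, a ubiquitin ligase upstream of Tbk1, fell from 134 to 102 CPM (adjusted p = 2e-05), and Azi2 and Tbkbp1, scaffold genes for Tbk1, rose from 64.6 to 75.1 CPM and from 10.9 to 18.8 CPM (adjusted p = 0.000186 and 0.000721). With library size alone 2 of this list rose and 12 fell in 4T1, and with a filter at 1 CPM 8 rose.

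Among the receptors, Janus kinases and transcription factors that act on IRF genes, all 16 were tested. In B16F10 7 rose and 3 fell, with a median log2 fold change of 0.21. Stat3 rose from 91.2 to 165 CPM (adjusted p = 4.19e-10) and Ifngr2, the second chain of the interferon gamma receptor, from 18.7 to 29.5 CPM (adjusted p = 1.68e-07). Jak2 fell from 55.6 to 47.9 CPM (adjusted p = 0.0087) and Nfkb1, an NF-kB subunit gene, from 67.2 to 58.2 CPM (adjusted p = 0.014). Without control replicate 2 or 3 or treated replicate 2, 1 gene of this list fell. In 4T1 8 rose and 7 fell, with a median of 0.18. Stat2 rose from 11.1 to 73.2 CPM (adjusted p = 4.12e-11) and Trp53 from 42.0 to 89.7 CPM (adjusted p = 6.51e-09). Jak2 fell from 125 to 72.7 CPM (adjusted p = 1.82e-07) and Ifngr2 from 39.5 to 25.9 CPM (adjusted p = 5.87e-05), and the Ifngr2 response differed between the lines by -1.27 (adjusted p = 1.04e-08).

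Of the DNA-binding partners and remaining family members, 5 of 12 tested rose and 0 fell in B16F10, with a median log2 fold change of 0.30. Apart from Irf9, Junb rose from 8.64 to 19.7 CPM (adjusted p = 4.01e-08) and Jun from 41.5 to 57.7 CPM (adjusted p = 2.55e-05), both AP-1 subunits. In 4T1 10 of 13 rose and 2 fell, beside 39.2% and 36.1% of all genes, with a median of 0.64. Ikzf1, a lymphoid factor among the risers, had 0 CPM in the controls and 0.523 CPM in the treated libraries, and so entered the test through the treated group. Crebbp, an acetyltransferase coactivator of Irf3, rose from 82.3 to 124 CPM (adjusted p = 2.12e-05). Ets1, an ETS factor, fell from 312 to 220 CPM (adjusted p = 2.91e-05) and Tcf3, the E-protein E2A, from 150 to 129 CPM (adjusted p = 0.00538). PU.1 (Spi1), the main partner of Irf4 and Irf8 in blood cells, averaged 0.114 and 0.237 CPM in B16F10 and 0.00653 and 0.122 CPM in 4T1. It was not called in B16F10 (adjusted p = 0.257) and had too few counts for the test in 4T1. The 4T1 control mean lay under the level of 3 counts over that group (0.0189 CPM).

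The binding proteins and inhibitors also divided. In B16F10 6 of 15 rose and 3 fell (1 without control replicate 2), with a median log2 fold change of 0.09. Usp18, the deconjugase of Isg15 that damps interferon receptor signalling, rose from 0.32 to 2.98 CPM (adjusted p = 8.28e-08). Trim21, a ubiquitin ligase that binds several IRF proteins, rose from 5.08 to 8.72 CPM (adjusted p = 3.01e-05), and Irf2bpl, a relative of the Irf2 corepressors, from 39.4 to 53.3 CPM (adjusted p = 0.000109). Atf4, the amino acid response factor, which can bind Irf7, fell from 637 to 366 CPM (adjusted p = 1.28e-09). In 4T1 5 of 14 rose and 8 fell, with a median of -0.19. Usp18 rose from 0.88 to 84.2 CPM (adjusted p = 1.74e-12), Trim21 from 4.52 to 36.8 CPM (adjusted p = 6.32e-11) and Socs1, an inhibitor of Janus kinases, from 3.15 to 8.46 CPM (adjusted p = 1.32e-07). Lyn, a Src family kinase that restrains Irf5 in mouse myeloid cells, fell from 53.1 to 22.7 CPM (adjusted p = 1.2e-08), and Rbck1, a ubiquitin ligase subunit, from 70.9 to 51.1 CPM (adjusted p = 1.02e-05). Irf2bp2, an Irf2 corepressor, fell in both lines, from 81.4 to 67.9 CPM in B16F10 (adjusted p = 0.00762) and from 111 to 62 CPM in 4T1 (adjusted p = 1.7e-05).

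Most tested genes of the Irf1 list and of the Irf3 and Irf7 list of targets rose in both lines, where 21.4% of all genes rose in B16F10 and 39.2% in 4T1. Of the Irf1 target list, 13 of 20 were tested in B16F10, of which 11 rose and 0 fell, with a median log2 fold change of 1.23. Tapbp, which loads peptides onto MHC class I, rose from 20.8 to 56.0 CPM (adjusted p = 4.33e-10), Bst2, which tethers virus particles, from 34.3 to 71.7 CPM (adjusted p = 9e-10) and Gbp2, an interferon-induced GTPase gene, from 6.97 to 16.2 CPM (adjusted p = 4.42e-08). In 4T1 19 were tested, of which 15 rose and 2 fell, with a median of 1.48. Xaf1, a pro-apoptotic gene, rose from 2.12 to 45.0 CPM (adjusted p = 3.18e-12), Bst2 from 9.07 to 82.6 CPM (adjusted p = 4.6e-12) and Cd274, the checkpoint ligand PD-L1, from 1.58 to 19.9 CPM (adjusted p = 5.69e-11). Vcam1, an adhesion molecule, fell from 90.6 to 43.0 CPM (adjusted p = 1.24e-08). Cd274 had 19.0 and 18.5 CPM in control and treated B16F10 (adjusted p = 0.717).

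The list of Irf3 and Irf7 targets had the highest median among the lists with 5 or more tested genes, in B16F10 and in 4T1. In B16F10 12 of 13 tested of 17 rose and 0 fell, with a median log2 fold change of 3.22. Ifit1, an inhibitor of viral RNA translation, rose from 9.56 to 95.8 CPM (adjusted p = 1.42e-16), Rsad2, the antiviral enzyme viperin, from 9.67 to 58.7 CPM (adjusted p = 1.96e-12) and Ddx58, the RNA sensor RIG-I, from 15.7 to 55.8 CPM (adjusted p = 1.63e-12). The exception was Ifit2, with 92.6 and 85.2 CPM (adjusted p = 0.143). In 4T1 14 of 14 tested rose, with a median of 5.38. Ddx58 rose from 46.1 to 328 CPM (adjusted p = 1.17e-12), Usp18 as given above, and Ifit3, a partner of Ifit1, from 0.852 to 36.7 CPM (adjusted p = 1.76e-11). The 4 genes of this list outside the test in B16F10 were the interferon genes Ifnb1, Ifna1, Ifna2 and Ifna4, which had 0 counts in all 6 B16F10 libraries. The 3 interferon alpha genes were also outside the test in 4T1.

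Of the Irf5 cytokine targets, 7 of 10 were tested in 4T1 and all 7 rose, with a median log2 fold change of 4.25. Ifnb1 went from 0.0189 to 9.34 CPM (adjusted p = 5.22e-11), Tnf from 0.511 to 9.38 CPM (adjusted p = 7.18e-10) and the chemokine gene Ccl4 from 0.0619 to 14.5 CPM (adjusted p = 8.44e-10). In B16F10 only 2 of these genes could be tested, of which Ccl5, another chemokine gene, rose from 0.366 to 4.06 CPM (adjusted p = 1.67e-09). This list shares Ccl5 and Ifnb1 with the Irf3 and Irf7 targets, so its count is not separate from theirs. The Irf4 and Irf8 targets, mostly genes of blood cells, were little expressed. In B16F10 5 of 14 were tested, with a median log2 fold change of -0.04, and 1 rose, the protease inhibitor gene Cst3 (80.9 to 98.0 CPM, adjusted p = 0.00274). In 4T1 6 were tested, of which 5 rose and 1 fell, with a median of 1.05, and 3 rose with library size alone or without control replicate 2. Klf4, a differentiation factor, rose from 10.1 to 29.8 CPM (adjusted p = 8.66e-09), Prdm1, the plasma cell factor Blimp-1, from 0.454 to 2.45 CPM (adjusted p = 4.69e-07) and Id2, an inhibitor of E-proteins, from 17.6 to 70.9 CPM (adjusted p = 8.11e-06), while Cst3 fell from 81.1 to 70.6 CPM (adjusted p = 0.0145). A gene entered each test through whichever group it was high in, so counts over tested genes favour genes that are off in one group.

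**Figure D4:**
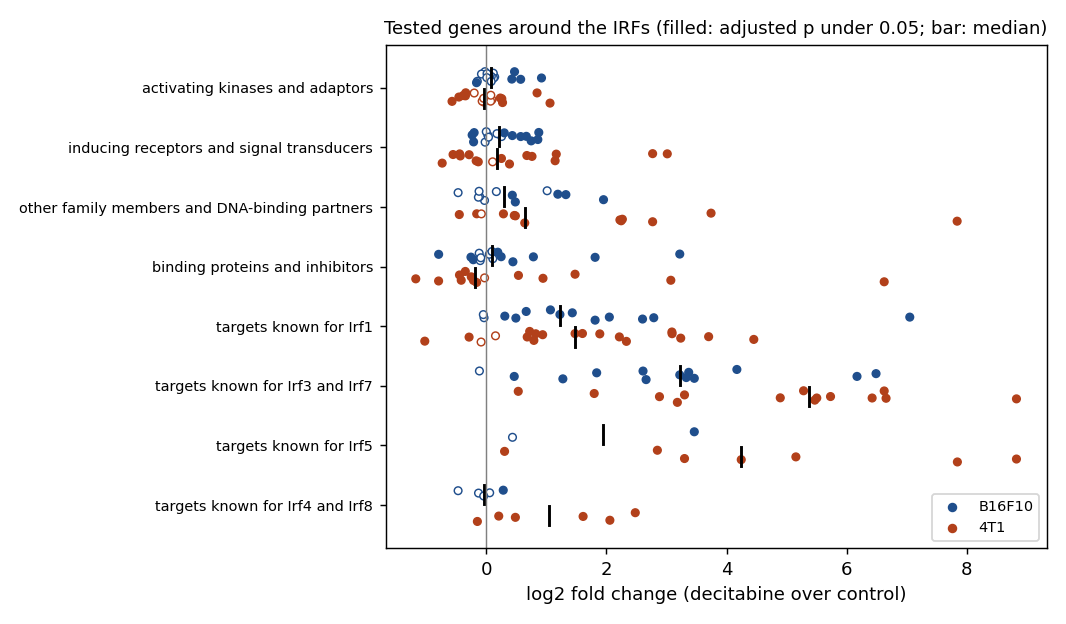
Log2 fold change with decitabine over control for every tested gene of the 8 lists around the IRFs, in B16F10 (blue) and 4T1 (orange), filled where the adjusted p was under 0.05, with the list's median as a black bar. The medians of the upstream and inhibitor lists lie near 0, and that of the Irf3 and Irf7 targets lies at 3.22 in B16F10 and 5.38 in 4T1.

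Markers of blood cells were checked beside the members known from those cells. Summed over 20 genes, blood and immune markers lay between 9.5 and 10.1 CPM in control and between 30.7 and 33.2 CPM in treated 4T1, and of 9 tested 8 rose and 1 fell, where 39.2% of all genes rose. Markers of other cell types rose there too, the fibroblast and endothelial sum from between 22.0 and 27.8 to between 44.5 and 65.5 CPM (4 of 6 tested rose and 1 fell), and 4 of 4 tested melanocyte markers. The highest blood marker was Csf1r, a macrophage receptor gene, at 13.1 CPM, and Adgre1, Nkg7 and Ncr1 were at 0 in every group. Ptprc, the common leukocyte marker CD45, averaged 0.0818 CPM in control and 1.21 CPM in treated 4T1. It entered the test through the treated group, as did Cd79a, Itgam and Itgax (0.0376, 0.038 and 0.0192 CPM in the controls). The same held for the melanocyte markers Tyr, Trpm1 and Pmel (0.108, 0.0125 and 0.151 CPM in the controls). The counts over tested markers therefore favour rises. In B16F10 the blood and immune sum lay between 94.5 and 98.4 CPM and, with decitabine, between 139 and 177 CPM. The lysosomal gene Cd68 held 93.0 and 156 CPM of it. Without it the sums were 3.45 to 4.61 and 5.52 to 7.52 CPM. The part of these markers in the changes of Irf4, Irf5, Irf7 and Irf8 was not tested, and in bulk RNA more cells of a type and more RNA per cell cannot be told apart.

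Genes whose profiles over the 12 libraries were most like each member's were named from 13804 genes, by the root mean square (RMS) difference of centred log2(CPM + 0.5). For Irf7 they were Ifi44 (0.277), Pet2 (0.366) and Zbp1 (0.407), against a range of 6.80 log2 units for Irf7 itself. For Irf1 they were Ddx20 (0.09), Abhd2 and Sqrdl, and for Irf2 Prdm2 (0.083), Acvr1 and Cherp. For Irf3, whose own range was 0.45, they were Tial1 (0.061), Gopc and Ric8b. For Irf5 they were Gatm (0.199), Nbl1 and Klk8, and for Irf8 Hhip (0.094), Apbb1 and Adamtsl3. For Irf4 they were Cyp2j9 (0.089), Srpx2 and Stat3. The named genes depend on the added constant. At 0.1 CPM Lhfpl1 replaced Stat3 for Irf4, and the RMS to Cyp2j9 was 0.267. Zbp1 came first and Tpm2 replaced Pet2 for Irf7, and Foxc2 replaced Apbb1 for Irf8. Cirh1a replaced Sqrdl for Irf1, and Rasgef1b replaced Klk8 for Irf5. The RMS difference measures likeness of 4 group levels above all, and these libraries share line and treatment.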

How the data were processed

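RNA-seq of 12 libraries in 4 groups was analysed from 2 deposited tables, 1 per line, of unscaled estimated counts per gene. The submitters' processing notes name RSEM, edgeR and the build mm10, with no versions of the tools. The sources used here do not give the aligner, annotation, strand setting or use of the kit's molecular indices, so intervals cover counting error only. Estimated counts as deposited were rounded to whole numbers. Chi-square per degree of freedom was at least 6.15 for any pair within a group, so no pair differed by counting error alone. This cannot exclude repeat preparations from the same culture. The biological coefficient of variation came to 10.5% (B16F10) and 6.92% (4T1).

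Each line was fitted alone with edgeR 4.0.16 in R 4.3.3 (filterByExpr with a minimum count of 10, TMM, robust quasi-likelihood test, Benjamini-Hochberg over all genes tested, threshold 0.05). Contrasts between lines used one fit of all 12 libraries, whose TMM factors also scale every CPM printed. SEs come from the fold change divided by the root of the test's F value. The tests were tried on simulated counts. Alternatives were DESeq2 1.42.0, limma-voom (limma 3.58.1), other scalings and filters, a replicate block and leaving out each library. Ratios of low counts have exact (Clopper-Pearson) 95% intervals. TPM used exon lengths of GENCODE M21 (46005 of 46517 genes matched; genes without a length held at most 0.167% of counts). Symbols turned into dates (27) were restored by identifier, and 1 repeated identifier was resolved by symbol. Figures were drawn with matplotlib 3.10.9.

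The members and lists were chosen with earlier results of these data known. Named genes are the 7 members, Irf9 and Dnmt1, and per list and line up to 3 rising and 2 falling called genes with the smallest adjusted p and at least 1 CPM in the higher group. For each member the 3 genes most like it, with official symbols, are added. A few genes chosen this way are left out of the text and not reported here. Tnpo3, Phrf1, Spi1, Ikzf1, the markers, Ifit2 and the untested interferon genes were named after their values were seen. All members were found in RefSeq's promoter table. Protein sequences were not used here.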

Additional observations from a re-analysis of the deposited data

Results flagged for a closer look

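The response to decitabine of 2 IRF genes differed between the lines by the test of the difference itself, 4T1 minus B16F10, in one fit of all 12 libraries. For Irf7 the difference was 2.89 on the log2 scale, and every alternative kept it past the threshold. For Irf9 it was 2.37. In B16F10 the Irf7 controls averaged 0.138 CPM, so its value rests on few counts there. Line and dose cannot be told apart in either.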

How the results depend on the processing

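Of 552 log2 fold changes of members under an alternative, 513 kept direction and side of the threshold, 18 reversed, 15 newly passed and 6 no longer passed. Irf1, Irf4 and Irf7 in B16F10 and Irf1, Irf5, Irf7 and Irf8 in 4T1 kept their calls under every alternative that gave a value. Every reversed value is of a member that was not called. Scaled by library size only, Irf2 in 4T1 was -0.171, Irf3 in 4T1 -0.174, the Irf3 response difference -0.086, and Irf3 between the treated lines -0.195. Between the control groups Irf3 was 0.034 with DESeq2, 0.033 with RLE size factors and 0.007 with no filter, and -0.153 to 0.098 leaving out 1 library. The Irf5 response difference was -0.302 with limma-voom and -3.576 to 1.181 leaving out 1 library, the lowest without B16F10 control replicate 1. The members called for the response difference, 1 in the fit reported, were 2 with DESeq2, RLE size factors, no filter, a filter at 1 CPM or the replicate block, 3 with library size only, and 1 to 2 leaving out 1 library. Those called in 4T1 were 4 to 6 leaving out 1 library, 6 without control replicate 1, and in B16F10 3 to 4. The cause was not tested. Library size only also lowered the share of calls that were higher from 42% to 26.4% for the response difference and from 52.1% to 42.1% between the treated lines. Of 28 levels per length, 18 moved by more than their SD with the longest transcript. Same-numbered libraries deviated with correlations of -0.254 to -0.03 in B16F10 and -0.158 to 0.1 in 4T1, so no pairing by number was seen. With 3 libraries per group, centred on the group mean, these correlations cannot exclude pairing. With the replicate block 5728 genes in place of 5910 were called in B16F10 and 11307 in place of 11688 in 4T1. In B16F10, depth limits what can be said of Irf5 and Irf8, and in 4T1 of Irf4.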
